A study of Capra hircus with 9 samples.

Results

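Genes that mark macrophages and Langerhans cells were examined in the rumen epithelium of goats on 3 diets. The list held 10 genes fixed by name: C1QA, C1QB, C1QC, CSF1R, CD207, FCER1G, CD68, CD163, AIF1 and TYROBP. Of these, 9 were found among the 18383 gene names of the files, and CD163 was not analysed here. RNA sequencing measured 9 libraries from goats (Capra hircus) aged 4 months, with 3 libraries for each of the diets HC, MC and LC. The study set 3 kinds of concentrate feed against each other, and the labels leave the letters of the diets unexplained. Every group shared the tissue, the age and the Trizol extraction of RNA from frozen tissue, and no treatment other than diet is named. Whether the 3 libraries of a diet came from separate animals is not stated, so the p-values describe the spread among these libraries only, and that spread may be technical.

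Macrophages are the resident phagocytes of most tissues, and Langerhans cells are the phagocytes that live inside stratified epithelia such as the epidermis and the lining of the mouth. Both depend on signalling through CSF1R, the receptor for the growth factors CSF1 and IL34. Langerhans cells are recognised by langerin, the lectin encoded by CD207, which carries captured material into Birbeck granules. Tissue macrophages are a main source of C1q, the recognition molecule that starts the classical complement pathway and also tags dying cells for uptake. TYROBP and FCER1G encode small adaptor proteins whose ITAM motif passes signals from immune receptors to the kinase SYK. The rumen is lined by a stratified, cornified epithelium in which such cells stand between the microbes of the lumen and the blood.

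Levels are given in FPKM, which corrects fragment numbers for the length of the transcript and the size of the library, so that they can be compared between genes per length. The summed FPKM of a library was 755624 in the first LC library and 903006 to 1051183 in the others. Per library, 15123 to 15693 genes were listed in HC and 15744 to 16696 in LC and MC. The files hold no read counts, so the sequencing depth behind each value is unknown. A change is the difference of diet means of log2(FPKM + 1) ± SE, which understates the change of genes with low levels. It was tested with limma over 11668 genes and called at an adjusted p under 0.05. On the deposited scale the median gene changed by -0.10 in HC minus LC, by -0.10 in HC minus MC and by -0.0067 in MC minus LC, so changes in both HC contrasts sit on a scale that is lower by that much. In bulk tissue, fewer cells of a type and less RNA per cell cannot be told apart.

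The 3 chains of C1q lie side by side on chromosome 2, in positions as the files give them for a genome build not given in the sources used here. C1QB (129347324 to 129354376), C1QC (129358880 to 129366662) and C1QA (129370859 to 129373837) span 26514 bases together. C1QC shares its locus in the files with LOC102187088, a transcribed pseudogene in the RefSeq table, so its value is uncertain. The pseudogene itself was listed at 0.0532 to 0.538 FPKM, far below C1QC.

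C1q transcripts were high in LC, lowest in MC and in between or near LC in HC. C1QA, the A chain, stood at 11.9, 14.8 and 9.68 FPKM in the LC libraries, at 5.58, 5.22 and 2.15 FPKM in MC, and at 9.90, 7.90 and 13.6 FPKM in HC. All MC libraries lay below all others, and the HC libraries overlapped with those of LC. C1QB, the B chain, stood at 9.63, 11.8 and 7.74 FPKM in LC, at 3.47, 4.81 and 1.79 FPKM in MC, and at 5.06, 7.33 and 7.33 FPKM in HC. For this chain the 3 diets did not overlap, with MC lowest and LC highest. C1QC, the C chain, stood at 12.0, 12.7 and 9.77 FPKM in LC, at 4.25, 5.49 and 2.91 FPKM in MC, and at 8.53, 6.98 and 10.3 FPKM in HC. Its MC libraries were again below all others, while the highest HC library passed the lowest LC library.

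**Figure D1:**
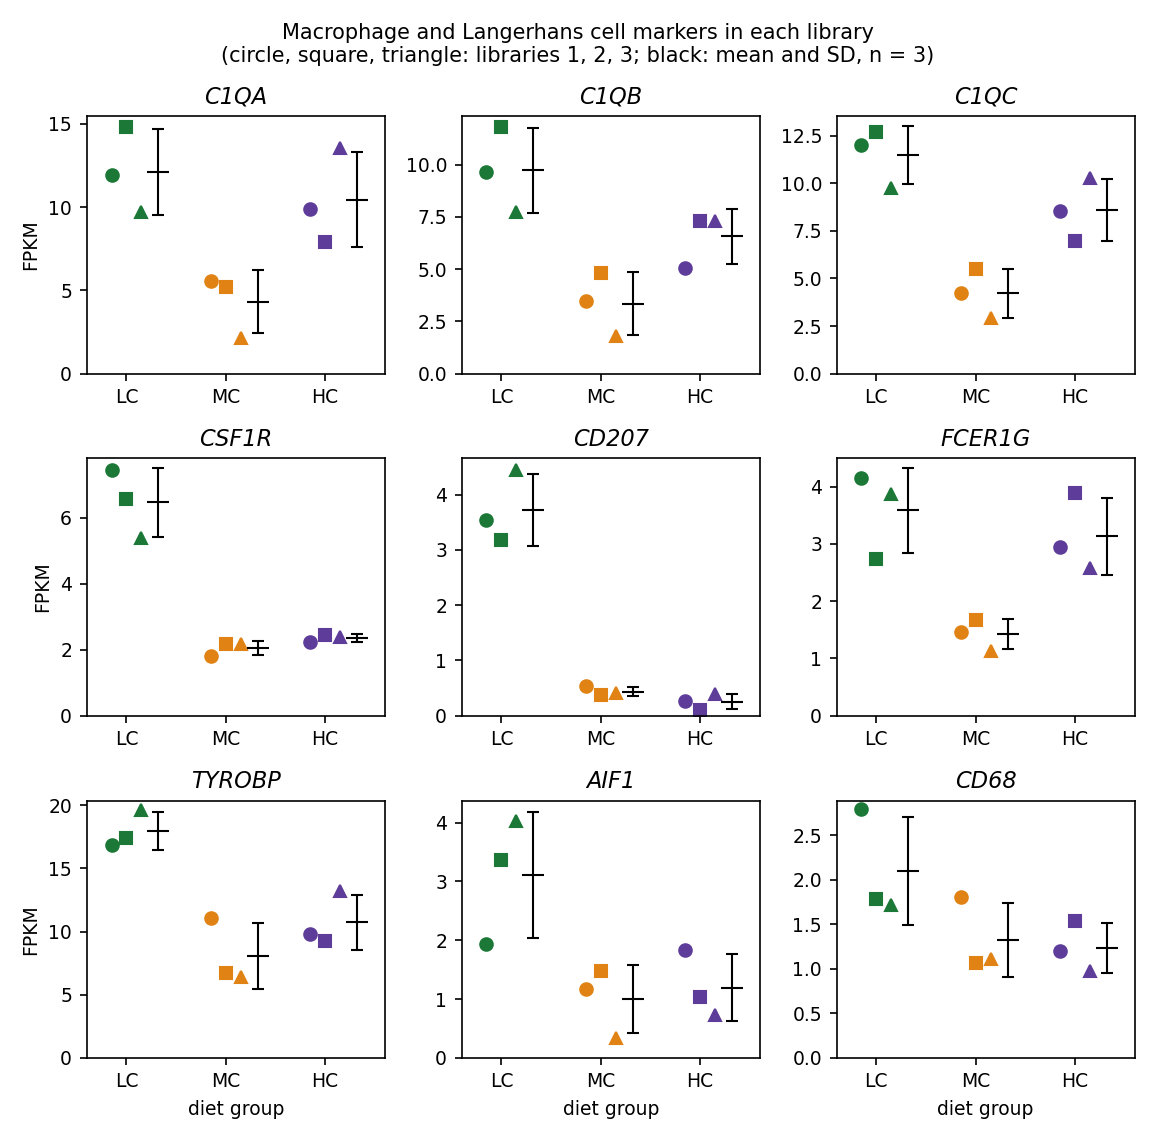
FPKM (vertical axes, starting at 0) of the 9 markers in each library, by diet group (horizontal axes), with circles, squares and triangles for libraries 1, 2 and 3 and black bars for the mean and SD (n = 3). The C1q chains and FCER1G are lowest in MC, with HC above MC, whereas CSF1R and CD207 are low in both MC and HC.

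From LC to MC all 3 chains fell. The mean of C1QA dropped from 12.1 ± 2.58 to 4.32 ± 1.89 FPKM (SD, n = 3), a log2 change of -1.36 ± 0.29 (adjusted p = 0.00613). C1QB dropped from 9.73 ± 2.04 to 3.35 ± 1.51 FPKM, a log2 change of -1.35 ± 0.25 (adjusted p = 0.00251), and C1QC from 11.5 ± 1.53 to 4.22 ± 1.29 FPKM, a log2 change of -1.28 ± 0.19 (adjusted p = 0.000411). With the third LC library alone standing for LC, the calls of C1QA (adjusted p = 0.104, the highest of 22 alternatives, which began at 0.00190) and C1QB (0.0683, also the highest, from 0.000502) were lost.

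HC lay above MC for the same 3 chains. C1QA averaged 10.4 ± 2.87 FPKM in HC, 1.15 ± 0.29 above MC on the log2 scale (adjusted p = 0.0197). The HC mean of C1QB was 6.57 ± 1.31 FPKM, 0.85 ± 0.25 above MC (adjusted p = 0.0344), and that of C1QC was 8.59 ± 1.64 FPKM, 0.89 ± 0.19 above MC (adjusted p = 0.00631). The C1QB call was lost in 6 of 22 alternatives, among them every library scaled to the same sum. It was also lost without HC library 2 (adjusted p = 0.120), HC library 3 (0.114), MC library 1 (0.0768) or MC library 3 (0.0758, log2 change 0.56). Over all alternatives the adjusted p of C1QB ran from 0.00621 to 0.120. That of C1QA was lost without HC library 3 (adjusted p = 0.0723, in a range of 0.00184 to 0.0723), and C1QC kept its call in all 22 alternatives.

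Between HC and LC no chain passed the test. The log2 change was -0.21 for C1QA (95% interval -0.86 to 0.44), -0.50 for C1QB (-1.06 to 0.06) and -0.39 for C1QC (-0.80 to 0.02), so that the intervals reach from falls of moderate size to small rises.

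The other complement genes were described from a list of 24, of which 19 were listed in the files and 10 were tested. Among all genes tested, 17.4% fell and 7.79% rose in HC minus LC, 17.1% fell and 16.2% rose in MC minus LC, and 17.0% fell and 8.00% rose in HC minus MC, and the counts of every list are to be set beside these shares. A gene that reached 1 FPKM only in LC entered the test because LC was high and had to differ, which held for 1 of the 10 complement genes, C2. In HC minus LC, 8 of the 10 fell and none rose, with a median log2 change of -1.06 against -0.10 for all genes. In MC minus LC, 5 fell and none rose (median -1.09 against -0.0067), and in HC minus MC 3 rose and 1 fell (median 0.12 against -0.10). C1R and C1S encode the proteases that join C1q in the C1 complex. C1R stood at 36.2, 34.7 and 29.6 FPKM in LC, at 5.98, 5.83 and 4.92 FPKM in MC, and at 7.07, 7.13 and 7.10 FPKM in HC. Unlike the chains of C1q, it was low in every HC library.

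The fall of C1R was -2.09 ± 0.12 in HC minus LC (adjusted p = 9.37e-07) and -2.39 ± 0.12 in MC minus LC (adjusted p = 2.97e-07). C1S followed the same order, with 24.8 ± 2.48 FPKM in LC, 5.97 ± 1.64 in MC and 6.41 ± 0.655 in HC (log2 change -1.80 ± 0.17 in HC minus LC, adjusted p = 3.22e-05). C3, the central component that all complement pathways cleave, averaged 6.18 ± 2.02 FPKM in LC, 0.452 ± 0.192 in MC and 1.63 ± 0.312 in HC. Each of its 3 differences passed the test, and HC stood 0.86 ± 0.21 above MC (adjusted p = 0.0112). CFD, the protease of the alternative pathway, fell in MC minus LC by 1.51 on the log2 scale (adjusted p = 0.000102) and was 1.03 ± 0.18 higher in HC than in MC (adjusted p = 0.00247). The difference in pattern between the C1q chains and the C1 proteases was not tested.

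**Figure D2:**
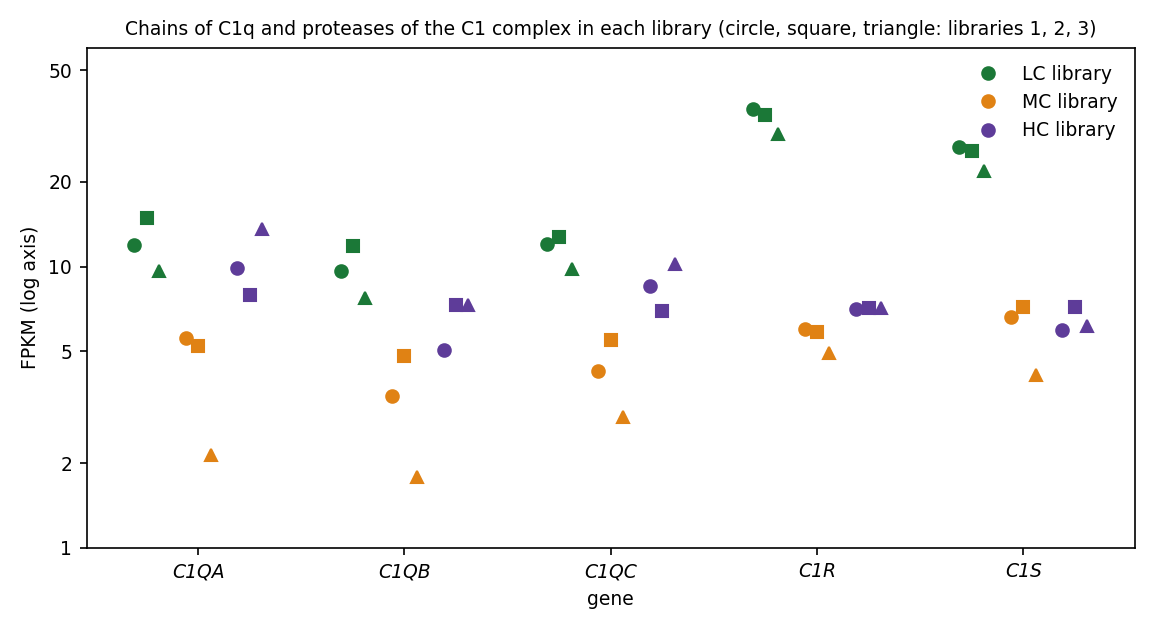
FPKM on a log axis of the 3 chains of C1q and the 2 proteases of the C1 complex in each library, with LC in green, MC in orange and HC in purple and circles, squares and triangles for libraries 1, 2 and 3. HC points of C1QA, C1QB and C1QC sit above the MC points, while for C1R and C1S they sit with MC, far below LC.

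CSF1R, the receptor tyrosine kinase on which macrophages and Langerhans cells depend, fell to about the same level in MC and HC. The gene lies on chromosome 7 (57627190 to 57658940). Its level was 7.47, 6.57 and 5.39 FPKM in LC, 1.80, 2.17 and 2.17 FPKM in MC, and 2.22, 2.44 and 2.40 FPKM in HC. The LC libraries were well above the other 6, among which the HC libraries stood just above those of MC. The mean dropped from 6.48 ± 1.04 FPKM in LC to 2.05 ± 0.213 in MC (log2 change -1.29 ± 0.13, adjusted p = 3.53e-05) and to 2.35 ± 0.117 in HC (log2 change -1.15 ± 0.13, adjusted p = 0.000131). HC minus MC was 0.14, with a 95% interval of -0.15 to 0.43 and an adjusted p of 0.456. Both calls of CSF1R held in all 22 alternatives.

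Ligands of CSF1R and transcription factors of the myeloid lineage formed a list of 15 genes, 12 of them listed and 6 tested. In HC minus LC 3 fell and 3 did not pass the test (median log2 change -0.42), and in MC minus LC the same numbers were found (median -0.37). The counts include no rise in either contrast, nor any call in HC minus MC (median -0.14). CSF1 itself, one of the ligands, stood at 6.16, 6.72 and 6.47 FPKM in LC, at 2.03, 1.88 and 2.19 FPKM in MC, and at 1.47, 1.54 and 1.26 FPKM in HC. The diets did not overlap, with HC lowest. CSF1 fell by 1.62 on the log2 scale in HC minus LC (SE 0.12, adjusted p = 6.02e-06) and by 1.30 in MC minus LC (SE 0.12, adjusted p = 1.55e-05).

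IL34, the ligand that maintains Langerhans cells in the epidermis, was too low for the test, at 0.0814 to 1.45 FPKM. SPI1, which encodes the myeloid transcription factor PU.1, was listed at 0.522, 0.821 and 1.44 FPKM in LC and at 0.147 to 0.359 FPKM in HC. In MC it was listed at 0.137 and 0.121 FPKM in libraries 2 and 3 and had no value in library 1. SPI1 reached 1 FPKM in LC library 3 alone, so it was too low for the test. The receptor chain CSF2RB, shared by GM-CSF and related cytokines, averaged 1.39 ± 0.474 FPKM in LC, 0.323 ± 0.0901 in MC and 0.313 ± 0.0672 in HC. It was the 1 gene of the 6 that entered the test through LC alone. The filter thus fixed the direction of its 2 changes in the counts above, though not that they passed the test.

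CD207 had the largest relative drop of the 9 markers in both contrasts with LC. The gene is on chromosome 11 (13409254 to 13413848). Langerin transcripts stood at 3.54, 3.18 and 4.44 FPKM in LC, at 0.531, 0.376 and 0.402 FPKM in MC, and at 0.259, 0.109 and 0.388 FPKM in HC. Every LC library was above 3 FPKM and every other library below 1 FPKM. CD207 thus met the filter of 1 FPKM in 3 libraries through LC alone and had to differ to be tested, and its tests are a description of the size of the gap. Its mean fell from 3.72 ± 0.648 FPKM in LC to 0.436 ± 0.083 in MC (log2 change -1.71 ± 0.15, adjusted p = 1.57e-05) and to 0.252 ± 0.140 in HC (log2 change -1.91 ± 0.15, adjusted p = 1.12e-05). The size rests on the pseudocount: with 0.1 in place of 1, the change in HC minus LC was -3.51 and that in MC minus LC -2.83. MC and HC overlapped, and HC minus MC was -0.20 (95% interval -0.54 to 0.14, adjusted p = 0.354).

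A list of 32 genes of Langerhans cells and dendritic cells had 27 listed and 11 tested members. In HC minus LC 5 fell (median log2 change -0.45), in MC minus LC 4 fell and 1 rose (median -0.22), and in HC minus MC 1 rose and 3 fell (median -0.17). The last counts, of 11 genes, are near the shares of all genes that rose (8.00%) and fell (17.0%). CCL22, a chemokine of dendritic cells and macrophages that draws T cells, stood at 4.67, 1.89 and 2.78 FPKM in LC, at 0.149, 0.347 and 0.355 FPKM in MC, and at 0.0756, 0.152 and 0.181 FPKM in HC. Only the LC libraries were above 1 FPKM, as for CD207, so CCL22 too had to differ to be tested. TGFB1, a cytokine required for Langerhans cells to form and stay in the epidermis, fell from 14.4 ± 2.65 FPKM in LC to 6.80 ± 0.138 in MC (log2 change -0.97 ± 0.14, adjusted p = 0.000334) and 6.59 ± 0.855 in HC (log2 change -1.02 ± 0.14, adjusted p = 0.000412). The rise was that of FSCN1, an actin-bundling protein of mature dendritic cells and other motile cells, from 28.3 ± 0.405 FPKM in LC to 49.1 ± 6.83 in MC (log2 change 0.76 ± 0.14, adjusted p = 0.00197).

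EPCAM and CDH1, adhesion proteins that Langerhans cells share with the epithelium around them, stood at 49.3 to 69.3 and 62.7 to 93.5 FPKM over all libraries and passed the test in no contrast. Genes of MHC class II presentation were a list of 20 names with 4 listed and 3 tested. CD74, the invariant chain of MHC class II, was the one that changed against LC, falling from 111 ± 8.25 FPKM in LC to 29.6 ± 0.251 in MC (log2 change -1.87 ± 0.14, adjusted p = 5.44e-06) and 41.1 ± 7.44 in HC (log2 change -1.43 ± 0.14, adjusted p = 4.78e-05). CIITA, the switch of class II transcription, was listed at 0.116 to 0.619 FPKM and was not tested.

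Of the ITAM adaptors, FCER1G followed the C1q chains and TYROBP fell in both MC and HC. FCER1G, the gamma chain of Fc receptors, lies on chromosome 3 (7770971 to 7774661). It stood at 4.14, 2.73 and 3.87 FPKM in LC, at 1.46, 1.67 and 1.14 FPKM in MC, and at 2.94, 3.88 and 2.57 FPKM in HC. The MC libraries were below all others, and those of LC and HC were interleaved. FCER1G averaged 3.58 ± 0.749 FPKM in LC and 1.42 ± 0.267 in MC, a log2 change of -0.91 ± 0.17 (adjusted p = 0.00167). Its HC mean of 3.13 ± 0.674 FPKM was 0.76 ± 0.17 above MC (adjusted p = 0.00747), and HC minus LC was -0.15 with a 95% interval of -0.51 to 0.22. With the mean of smooth muscle markers as covariate the call between HC and MC was lost (adjusted p = 0.0849, the highest over alternatives that began at 0.00217).

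TYROBP, also called DAP12, had the highest mean level per length of the 9 markers in each diet, though C1QA was above it in HC libraries 1 and 3, and lies on chromosome 18 (45377742 to 45380622). Its level was 16.8, 17.4 and 19.7 FPKM in LC, 11.1, 6.73 and 6.38 FPKM in MC, and 9.76, 9.21 and 13.2 FPKM in HC. All LC libraries were above all others, and MC and HC overlapped. The mean fell from 17.96 ± 1.50 FPKM in LC to 8.06 ± 2.61 in MC (log2 change -1.10 ± 0.19, adjusted p = 0.00109) and to 10.7 ± 2.15 in HC (log2 change -0.71 ± 0.19, adjusted p = 0.0181). The call in HC minus LC was lost without HC library 1 (adjusted p = 0.0559), HC library 2 (0.0684) or LC library 3 (0.0509) and with LC library 3 alone for LC (0.0929), in a range of 0.00599 to 0.0929. HC minus MC was 0.39 (95% interval -0.02 to 0.80, adjusted p = 0.144) and passed without MC library 1 (0.0281) and with quality weights (0.00687), in a range that reached 0.524.

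Receptors that use these adaptors, with the kinases behind them, were a list of 24 genes. Of these 16 were listed and only 3 were tested, SYK, LYN and PLCG2, so that no receptor of the list was compared. HCST stood at 1.78, 1.92 and 3.19 FPKM in LC but had no value in MC library 2, so it was not tested. TREM2, a lipid receptor of macrophages that signals through TYROBP, was at most 0.273 FPKM in any library. SYK, the kinase that binds phosphorylated ITAM motifs, stood at 5.41, 6.50 and 6.39 FPKM in LC, at 2.03, 2.21 and 2.19 FPKM in MC, and at 3.26, 4.61 and 4.30 FPKM in HC. The 3 diets did not overlap, with HC between the others. SYK fell by 1.17 on the log2 scale in MC minus LC (SE 0.13, adjusted p = 7.22e-05) and was 0.67 ± 0.13 higher in HC than in MC (adjusted p = 0.00461; 0.0953 with the smooth muscle covariate, the highest over its alternatives). In the list as a whole 2 fell in HC minus LC (median log2 change -0.50), 2 fell in MC minus LC (median -0.79) and 1 rose in HC minus MC (median 0.27).

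AIF1 encodes IBA1, an actin-binding protein used to stain macrophages and microglia, and lies on chromosome 23 (26110015 to 26112430). It stood at 1.93, 3.36 and 4.03 FPKM in LC, at 1.18, 1.47 and 0.346 FPKM in MC, and at 1.83, 1.03 and 0.726 FPKM in HC. LC lay above the other diets, though its lowest library and the highest of HC were close. AIF1 fell from 3.11 ± 1.08 FPKM in LC to 0.999 ± 0.585 in MC (log2 change -1.05 ± 0.27, adjusted p = 0.0134) and to 1.196 ± 0.572 in HC (log2 change -0.90 ± 0.27, adjusted p = 0.0351). The AIF1 call in HC minus LC was lost in 9 of 22 alternatives, among them a pseudocount of 0.1. It was also lost without HC library 2 (adjusted p = 0.103), HC library 3 (0.129), LC library 2 (0.0973) or LC library 3 (0.0964). Median-of-ratios scaling (0.0524) and quantile normalization (0.139) lost it too, the last being the highest of a range that began at 6.73e-05. HC minus MC was 0.15 with a 95% interval of -0.45 to 0.76.

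CD68, a glycoprotein of macrophage lysosomes, passed the test in no contrast. It lies on chromosome 19 (26535719 to 26544146), where the files place it at 1 locus with the translation factor EIF4A1, at 207 to 430 FPKM in all libraries, so its value is uncertain. CD68 stood at 2.80, 1.78 and 1.72 FPKM in LC, at 1.81, 1.07 and 1.11 FPKM in MC, and at 1.197, 1.53 and 0.976 FPKM in HC. Every HC library was below every LC library, and MC overlapped with both. The log2 change was -0.46 in HC minus LC (95% interval -0.86 to -0.06 without adjustment, adjusted p = 0.0845) and -0.41 in MC minus LC (-0.81 to -0.01, adjusted p = 0.105). In HC minus LC the adjusted p was 0.00634 with quality weights, the lowest of its alternatives, and the highest was 0.472.

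**Figure D3:**
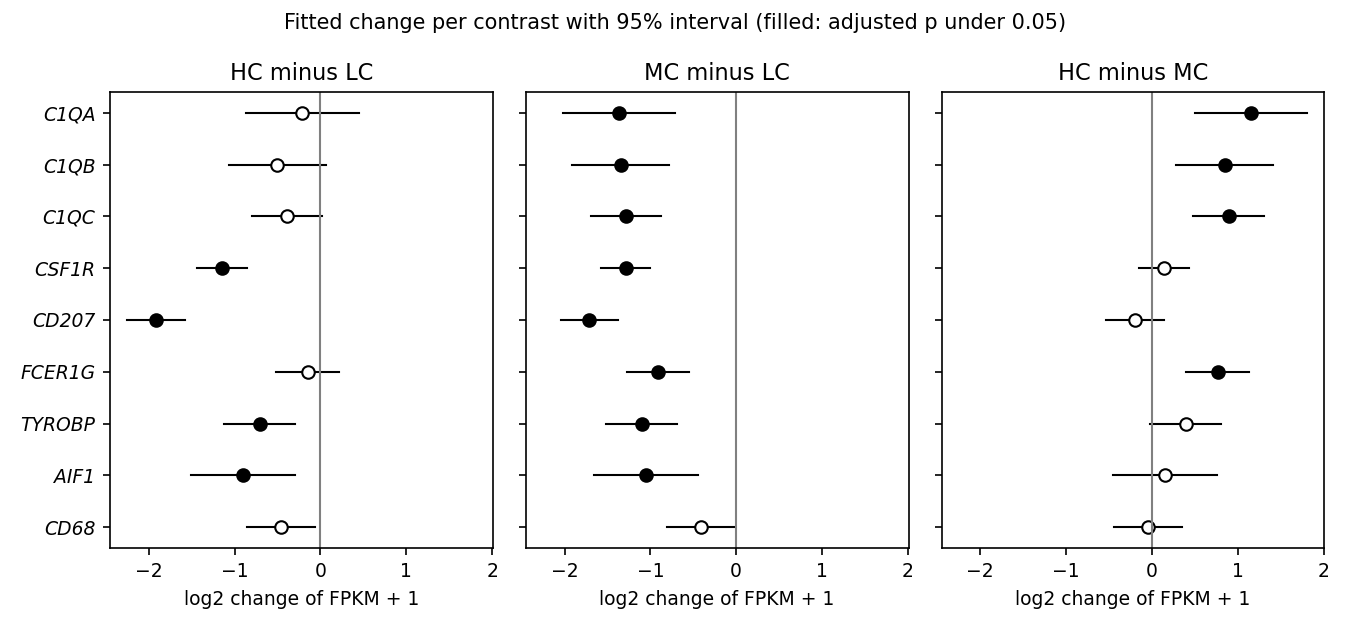
Log2 change of FPKM + 1 (horizontal axes) of the 9 markers in the 3 contrasts, with 95% intervals from the fit and filled points where the adjusted p was under 0.05. In MC minus LC all points but that of CD68 are filled and below 0, and in HC minus MC the filled points are C1QA, C1QB, C1QC and FCER1G, all above 0.

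In MC minus LC 8 of the 9 markers fell, all but CD68, and none rose. Over all genes tested 17.1% fell and 16.2% rose in this contrast. All MC libraries were below all LC libraries for 8 of the 9 markers, against 23.4% of all genes, and the median log2 change of the markers was -1.28 against -0.0067. The count of 8 held whichever library was left out. The filter let CD207 in only through LC, so these counts describe the list and test nothing about it as a whole.

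In HC minus LC 4 of the 9 markers fell, namely CSF1R, CD207, TYROBP and AIF1, and none rose. Over all genes 17.4% fell and 7.79% rose on the deposited scale, with 909 higher and 2030 lower. Median-of-ratios scaling, which moved the median gene to 0.0046, gave 1494 higher and 1329 lower. All HC libraries were below all LC libraries for 6 of 9 markers, against 27.4% of all genes, and the median of the markers was -0.50 against -0.10. Without HC library 2, or without LC library 3, only 2 of the 9 passed, as with LC library 3 alone for LC. CSF1R kept its call in every alternative. CD207, which entered the test through LC alone, is 1 of the 4.

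In HC minus MC 4 of the 9 markers rose, the 3 chains of C1q and FCER1G, and none fell. Over all genes 8.00% rose and 17.0% fell on the deposited scale, with 933 higher and 1984 lower, whereas after median-of-ratios scaling 1513 were higher and 1319 lower. All HC libraries were above all MC libraries for 5 of 9 markers, C1QA, C1QB, C1QC, FCER1G and CSF1R, against 14.7% of all genes, and the median of the markers was 0.39 against -0.10. Without HC library 3 the count of rises was 2. Taking the 3 diets in 1 F test, 8 of the 9 markers differed, where 45.2% of all genes did, and CD68 was the one that missed the threshold (adjusted p = 0.0937). The contrasts share libraries pairwise, so their counts are not independent of one another.

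Read as a share of the LC mean, the markers were spread more widely in HC than in MC. The MC means of 8 markers other than CD207 lay between 31.6% for CSF1R and 63.2% for CD68. In HC, FCER1G stood at 87.5% of its LC mean, C1QA at 86.1%, C1QC at 74.8% and C1QB at 67.5%. TYROBP reached 59.6% and CD68 58.9%, while AIF1 stood at 38.5% and CSF1R at 36.4%. CD207 was lowest, at 11.7% in MC and 6.79% in HC.

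**Figure D4:**
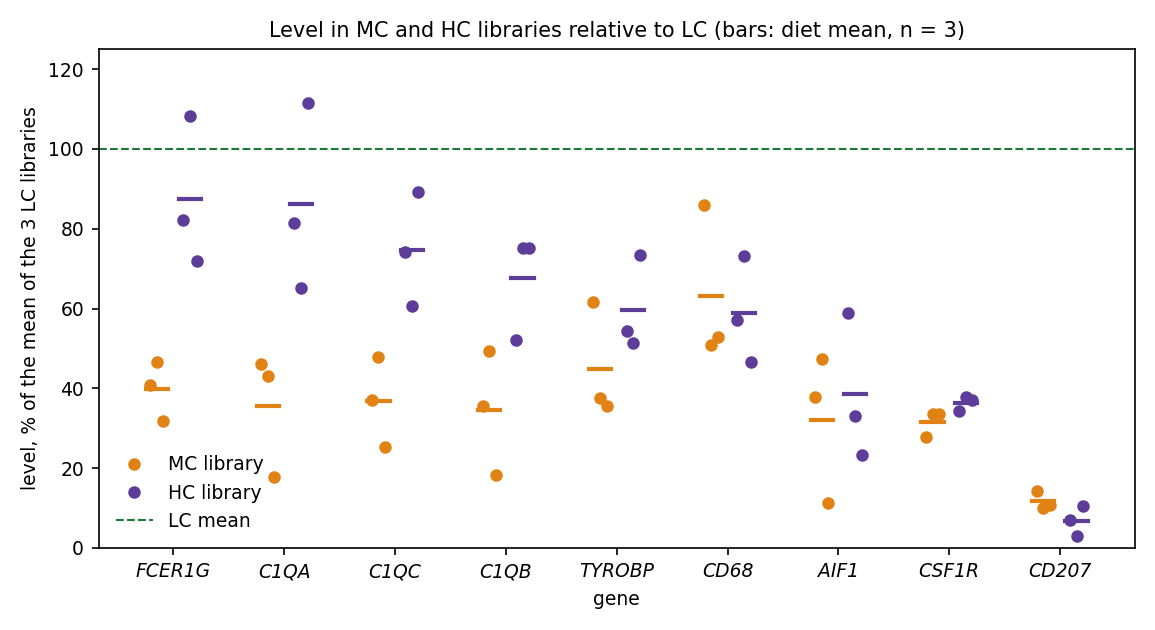
Level of each marker in the MC (orange) and HC (purple) libraries as a percentage of the mean of the 3 LC libraries (vertical axis, starting at 0), with bars for diet means and a dashed line at the LC mean. HC points of FCER1G and C1QA reach past 100%, and those of CSF1R and CD207 stay with the MC points.

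Ratios within a library, chosen after the levels were seen and given without a test, show the same divergence free of library scaling. C1QA relative to CSF1R was 1.59, 2.26 and 1.80 in LC and 4.45, 3.23 and 5.65 in HC. The HC ratios were all above those of LC, while those of MC, at 3.10, 2.40 and 0.990, spread from below the LC ratios to near those of HC. CD207 relative to CSF1R was 0.473, 0.484 and 0.824 in LC, 0.295, 0.173 and 0.186 in MC, and 0.117, 0.0448 and 0.162 in HC. By this ratio MC and HC were below LC with no overlap. CD207 entered the test through LC alone and was below 1 FPKM in every MC and HC library. The ratio thus describes the same gap again and is no separate support for it. The ratio of C1QB to C1QA was 0.809, 0.797 and 0.800 in the LC libraries and 0.511 to 0.927 in the other 6.

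PTPRC, the leukocyte antigen CD45, was used as a common denominator for leukocytes. It reached 1 FPKM in LC alone, so the ratios of MC and HC rest on a small denominator and are raised by its fall. It stood at 2.54, 1.86 and 2.18 FPKM in LC, at 0.436, 0.581 and 0.451 FPKM in MC, and at 0.440, 0.338 and 0.555 FPKM in HC. C1QA relative to PTPRC was 4.69, 7.98 and 4.43 in LC, 12.8, 8.98 and 4.76 in MC, and 22.5, 23.3 and 24.4 in HC. HC stood apart from the other diets by this ratio, in which PTPRC was low in HC while C1QA was near its LC level. CSF1R relative to PTPRC was 2.94, 3.54 and 2.47 in LC, 4.13, 3.74 and 4.80 in MC, and 5.04, 7.22 and 4.32 in HC, so that MC and HC overlapped and both were above LC. CD207 relative to PTPRC was 1.39, 1.71 and 2.03 in LC, 1.22, 0.647 and 0.892 in MC, and 0.589, 0.323 and 0.700 in HC. By this ratio the LC libraries were highest, and MC overlapped with HC. Both genes were below 1 FPKM in every MC and HC library.

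Other genes of macrophages and monocytes were a list of 38, with 29 listed and 13 tested. In HC minus LC 10 fell and 1 rose (median log2 change -0.93), in MC minus LC 11 fell (median -1.13), and in HC minus MC 3 rose and 1 fell (median 0.23). Of the 13, CX3CR1 and ITGB2 entered the test through LC alone. CD14, the coreceptor for lipopolysaccharide, stood at 16.4, 16.9 and 20.4 FPKM in LC, at 7.41, 7.43 and 8.44 FPKM in MC, and at 5.61, 3.80 and 4.92 FPKM in HC. CD14 was lowest in HC, where the C1q chains were lowest in MC, and HC minus MC was -0.61 ± 0.14 (adjusted p = 0.00938). LAPTM5, a lysosomal membrane protein of blood cells, kept the order of C1q, with 21.1 ± 1.76 FPKM in LC, 6.24 ± 1.05 in MC and 10.3 ± 0.664 in HC. Its changes were -1.62 ± 0.13 in MC minus LC (adjusted p = 7.36e-06) and -0.97 ± 0.13 in HC minus LC (adjusted p = 0.000356).

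GPNMB, a glycoprotein of lysosomes in macrophages, melanocytes and other cells, differed widely between the diets. It stood at 126, 152 and 219 FPKM in LC, at 3.10, 2.77 and 2.58 FPKM in MC, and at 19.1, 15.7 and 19.2 FPKM in HC. No diet overlapped with another, MC being lowest, and the log2 change was -5.41 ± 0.18 in MC minus LC (adjusted p = 9.40e-09) and 2.31 ± 0.18 in HC minus MC (adjusted p = 2.61e-05). The summed level of 3 listed melanocyte markers was at most 0.527 FPKM in any library, and their part in this result was not tested. HMOX1, which degrades haem, was the gene that rose in HC minus LC, from 44.1 ± 7.45 to 76.7 ± 19.2 FPKM (log2 change 0.77 ± 0.19, adjusted p = 0.0140), a call lost without HC library 3 (0.0640) and with every library scaled to the same sum (0.0734, the highest of its alternatives). MRC1, the mannose receptor of resident macrophages, was listed at 0.308 to 1.40 FPKM and was not tested.

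Genes common to leukocytes were highest in LC. Of 10 such genes 8 were listed and 6 tested, and 6 fell in HC minus LC (median log2 change -1.16), where 17.4% of all genes fell, and in MC minus LC (median -1.16), where 17.1% did. PTPRC, ITGB2 and RAC2, 3 of these 6, reached 1 FPKM in LC alone, so the filter fixed the direction of their changes against LC. In HC minus MC 2 of the 6 rose (median 0.26). The means of PTPRC were 2.19 ± 0.341 FPKM in LC, 0.489 ± 0.0795 in MC and 0.444 ± 0.108 in HC. LCP1, the actin-bundling L-plastin, fell from 8.96 ± 0.95 FPKM in LC to 1.94 ± 0.316 in MC and 2.13 ± 0.307 in HC, with log2 changes of -1.76 and -1.67.

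Markers of other cell types moved with the diets too, and their part in the changes of the 9 markers was not tested. The 9 markers summed to 66.3 to 74.4 FPKM in LC, 18.4 to 31.1 in MC and 40.4 to 51.4 in HC. Pan-leukocyte genes summed to 28.7 to 29.6 FPKM in LC, 4.45 to 7.50 in MC and 8.31 to 9.48 in HC. T cell and NK cell markers, 19 listed of 24, summed to 26.6 to 30.3, 12.9 to 15.9 and 15.7 to 20.02 FPKM, and 6 of 7 tested fell in HC minus LC, against 17.4% of all genes. Of these 7, 4 (CD3D, CD3E, CD3G and CD5) entered the test through LC alone. NKG7 went the other way, at 2.78 to 3.04 FPKM in LC, 7.98 to 9.22 in MC and 9.22 to 15.0 in HC. It makes up a large part of the T and NK cell sums in MC and HC, which thus understate the fall of the other markers. The sums of all 3 lists were highest in LC, with no overlap with MC or HC.

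B cell and plasma cell markers, 11 listed of 12, summed to 3.23 to 4.44 FPKM in LC, 1.49 to 2.34 in MC and 0.917 to 2.44 in HC. Neutrophil markers, 7 listed of 12, summed to 2.99 to 4.59 FPKM in LC, 5.87 to 7.71 in MC and 5.79 to 6.46 in HC, an order set by MMP9. Without MMP9, the other 6 summed to 2.23 to 2.79 FPKM in LC, 1.37 to 2.03 in MC and 1.25 to 1.79 in HC, with LC highest. Mast cell markers, 5 listed of 9, stayed at or below 1.05 FPKM. The stratified epithelium markers summed to 6516 to 9184 FPKM in LC, 7980.3 to 9359 in MC and 6845 to 8888 in HC and overlapped between the diets. KRT5 alone stood at 2696 to 4803 FPKM, so this sum says little about epithelial markers with low levels. KRT4 stood at 31.6 to 69.8 FPKM in LC, 1.65 to 2.25 in MC and 16.1 to 29.2 in HC. Of the 9 epithelial markers tested, 2 fell and none rose in HC minus LC. In MC minus LC 2 fell and 1 rose, and in HC minus MC 2 fell and 2 rose, to be set beside the shares of all genes given above.

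Smooth muscle markers separated the libraries in another way. Their sum was 2423 FPKM in the first, 1300.1 in the second and 60.4 in the third LC library, 1185 to 3666 in MC and 115 to 149.8 in HC. The third LC library had the lowest sum of all. The 9 markers summed to 70.2, 74.4 and 66.3 FPKM in LC libraries 1, 2 and 3. With the smooth muscle mean as covariate 4 markers were called in HC minus LC, 8 in MC minus LC and 3 in HC minus MC, where FCER1G was lost (adjusted p = 0.0849). Over all genes that covariate left 315 higher and 761 lower in HC minus MC, against 933 and 1984 without it. The muscle sums of HC and MC lay far apart, so covariate and diet are hard to tell apart in that contrast. That covariate turned the sign of C1QA in HC minus LC (log2 change 0.070) and of CD68 and AIF1 in HC minus MC (0.19 and -0.12), which passed the test neither with nor without it. Endothelial markers, 11 listed of 12, summed to 42.6 to 117 FPKM in LC, 38.7 to 93.3 in MC and 20.3 to 50.7 in HC, and fibroblast markers to 264 to 616, 174 to 339 and 166 to 325 FPKM. These sums overlapped between diets, and 1 of 10 endothelial and 2 of 9 fibroblast genes fell in HC minus LC, near the 17.4% of all genes. Their median log2 changes in HC minus LC were nevertheless -0.93 (endothelial) and -0.90 (fibroblast), against -0.10 for all genes. In MC minus LC these medians were 0.030 and -0.72, against -0.0067. The few calls thus do not show that these genes moved like the median gene.

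**Figure D5:**
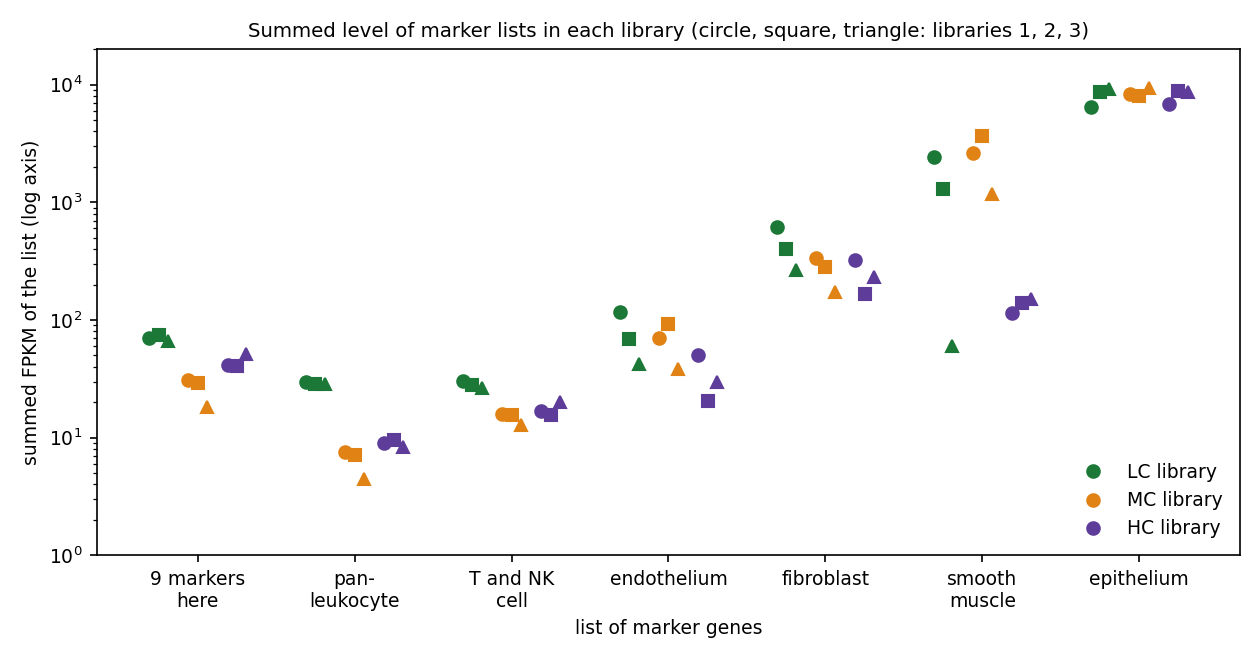
Summed FPKM (log axis) of the 9 markers and of 6 lists of marker genes for other cells in each library, with LC in green, MC in orange and HC in purple. The LC points of the 9 markers, the pan-leukocyte genes and the T and NK cell genes lie together at the top, and the third LC library (triangle) drops to the bottom for smooth muscle alone.

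The genes most like the 9 markers were sought over the 9 libraries among all genes tested, as a description with no p. Against the mean of the standardised marker levels, the highest Pearson correlations were those of CCL5 (0.990), LAPTM5 (0.985), CPO (0.983), COTL1 (0.982) and MRPL23 (0.982). CCL5, a chemokine of T cells and other leukocytes, averaged 5.16 FPKM in LC, 0.521 in MC and 1.31 in HC. Against CD207 alone they were ERAP1 (0.992), VNN2 (0.990), TFAP2E (0.990), MET (0.989) and CLIP4 (0.987). VNN2, a pantetheinase, averaged 24.4 FPKM in LC, 0.897 in MC and 0.617 in HC, and MET, the receptor of hepatocyte growth factor, 4.09, 1.48 and 1.29 FPKM. The 9 libraries fall into 3 diets, so such values mainly record the order of 3 means.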

How the data were processed

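RNA sequencing libraries were made with an Illumina TruSeq kit from total RNA, per the labels' protocols. The submitters' processing notes name Bowtie 1.2.0 and Cufflinks 2.2.1. The deposited values per gene were taken as FPKM, the unit of that last tool, since no label names it. The genome build is not given in the sources used here. Of 18383 names, 16473 (89.6%) are in the RefSeq gene table of goat assembly ARS1.2, used only for names and gene types. Starts in the files count from 0 (COX2 then spans 228 codons and CYTB 380), so 1 was added. No sequences are shown.

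Lines whose names had become dates (18 to 21 per LC and MC file, 0 in HC) were left out, and repeated lines of TPT1 and CD81 were summed. Lines without a gene name, 11468 to 12038 per HC file and 0 in each LC and MC file, were left out too. The HC files thus differ in form from the others, and the effect of this on the contrasts with HC was not tested. A level of 1 FPKM or more in 3 or more libraries was reached by 11879 genes, of which 211 lacked a value in some library, leaving 11668. Values went to log2(FPKM + 1) and were fitted with limma 3.58.1 (R 4.3.3, statmod 1.5.0) in 1 model (1 mean for each diet, empirical Bayes with trend and robust options), two-sided, with Benjamini-Hochberg adjustment over all genes per contrast. The fit was tested on simulated data. The markers and gene lists were chosen with earlier results of these data known. Named are all markers, up to 3 genes per list and contrast by adjusted p, well known genes of each list and, by correlation, 5 genes most like the markers and 5 most like CD207. Figures used Python 3.11.15, matplotlib 3.10.9, pandas 2.3.3 and numpy 2.4.6.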

Additional observations from a re-analysis of the deposited data

How the results depend on the processing

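Over 22 alternatives (pseudocount, filter, unlisted genes, scaling, moderation, weights, covariate, libraries, threshold), CSF1R kept its calls against LC; scaling every library to the same sum was chosen after seeing the data. Leaving out 1 library gave 2 to 4 markers called in HC minus LC (4 with all), 8 in MC minus LC (8) and 2 to 4 in HC minus MC (4). LC library 3 alone for LC, or a threshold of 0.01, left 2 in HC minus LC, and that threshold left 2 in HC minus MC. Of the other complement, CSF1R, ITAM, macrophage, dendritic, class II and leukocyte genes, 34, 31 and 16 were called in HC minus LC, MC minus LC and HC minus MC. In MC minus LC 49 were called with no filter, and in HC minus MC 28 with quality weights, 10 with the smooth muscle covariate, 8 at 0.01 and 10 to 21 with 1 library left out (10 without HC library 3 or MC library 1).

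Signs turned only for changes that never passed the test. CD68 in HC minus MC (-0.05) became 0.017 after median-of-ratios scaling, 0.12 after quantile normalization, 0.19 with the covariate, and, with 1 library left out, -0.14 to 0.092 (above 0 without HC library 3, at 0.035, or MC library 1). AIF1 in HC minus MC (0.15) became -0.26 with quality weights, -0.12 with the covariate, and, with 1 library left out, -0.11 to 0.33 (below 0 without MC library 3 or HC library 1, at -0.049). C1QA in HC minus LC (-0.21) became 0.070 with the covariate and 0.071 with LC library 3 alone, and FCER1G in HC minus LC (-0.15) became 0.094 after quantile normalization. The causes were not tested.

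Whether library numbers pair the samples is not settled, and the main fit did not pair them. Deviations of same-numbered libraries from their diet means correlated from -0.076 to 0.50, above 0.1 in 6 of 9 pairs. In 11 of 18 comparisons a library correlated best with its own number. Over all genes, a replicate block gave 1176 higher and 2575 lower in HC minus LC, against 909 and 2030 without it. With the replicate block 5 markers were called in HC minus LC, 8 in MC minus LC and 4 in HC minus MC, CD68 being added in HC minus LC (adjusted p = 0.0471). Depth is unknown, so how far it limits the low values of CD207, CD68 and AIF1 was not tested.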

Other observations

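In the lists for other cell types, NKG7 and MMP9 rose in MC and HC. NKG7, a granule membrane protein of cytotoxic lymphocytes, was higher in both diets than in LC, at 11.8 ± 2.96 FPKM in HC, 8.50 ± 0.639 in MC and 2.91 ± 0.130 in LC (SD, n = 3), with log2 changes of 1.68 ± 0.15 in HC minus LC and 1.28 ± 0.15 in MC minus LC (adjusted p = 2.3e-05 and 9.5e-05). MMP9, the gelatinase stored in neutrophil granules and also made by macrophages and keratinocytes, rose from 1.38 ± 0.553 FPKM in LC to 4.93 ± 0.709 in MC and 4.61 ± 0.603 in HC, with log2 changes of 1.34 ± 0.18 and 1.26 ± 0.18. No library of LC overlapped with those of MC or HC for either gene.

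CD59, which protects cells from the last step of complement, was lowest in HC. It stood at 119, 111 and 131 FPKM in LC, at 170, 143 and 130 FPKM in MC, and at 74.8, 49.0 and 56.4 FPKM in HC. HC was below both other diets without overlap, with log2 changes of -1.01 ± 0.17 against LC (adjusted p = 0.00171) and -1.30 ± 0.17 against MC (adjusted p = 0.000546).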
